A study of Mus musculus with 24 samples.

Results

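The enzymes of glycolysis and of the pentose phosphate pathway were described as a group of 32 genes, listed by name from the textbook steps of both pathways. The rule uses no measured value, but the group was proposed with earlier results of these data known. They were taken out of 23683 genes that the array's probes named. The list holds 10 genes of upper glycolysis (Hk1, Hk2, Gpi1, Pfkl, Pfkm, Pfkp, Pfkfb3, Aldoa, Aldoc and Tpi1), 6 of lower glycolysis (Gapdh, Pgk1, Pgam1, Eno1, Eno3 and Pkm) and 2 lactate dehydrogenase subunits (Ldha and Ldhb). It also holds 6 genes of the pyruvate dehydrogenase complex and its kinases (Pdk1, Pdk2, Pdk3, Pdha1, Pdhb and Dlat), 4 of the oxidative branch of the pentose phosphate pathway (G6pdx, Pgd, Pgls and H6pd) and 4 of its non-oxidative branch (Rpia, Rpe, Tkt and Taldo1).

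Glycolysis splits glucose into pyruvate in the cytosol, and lactate dehydrogenase or the mitochondrial pyruvate dehydrogenase complex takes the pyruvate further. The pentose phosphate pathway leaves glycolysis at glucose 6-phosphate. Its oxidative branch yields NADPH, and its non-oxidative branch exchanges carbon between ribose 5-phosphate and glycolytic intermediates. Naive T cells are known to rest mainly on mitochondrial oxidation, and activated CD8+ T cells are known for high glucose uptake and lactate production.

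The RNA came from OT-I CD8+ T cells, which carry a transgenic receptor for an ovalbumin peptide, in a mouse model of acute graft-versus-host disease. Recipients were female Act-mOVA mice of 8 to 16 weeks, in which the CAG promoter drives ovalbumin broadly across tissues. They received 11 Gy in 2 fractions of 5.5 Gy and then bone marrow and splenocytes from OT-I donors. Only the OT-I CD8+ T cells came from CD45.1 animals and all other cells were CD45.2, so the T cells could be drawn from each sample by magnetic selection on CD45.1. The control group was the graft on day 0 (n = 4), whose OT-I cells the submitters described as naive and which saw no recipient. The other groups were the same kind of cell recovered 4 days later from small intestine, lung, liver and blood of recipients (n = 5 each, 20 in all). No source used here says that each sample was a separate animal, so the p-values speak only of the spread between the samples as collected.

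The 300 pg of RNA from a sample was amplified linearly in 2 rounds and hybridised to a one-colour Agilent array. Levels are given as log2 of the processed signal relative to the 75th percentile of all gene probes on the same array, so a level of 0 is that percentile and a difference of 1 is a factor of 2 (log2 scale). Between 22.6% and 38.6% of gene probes per array were well above background, and the number of arrays limits the precision. The graft arrays shared 1 slide, slide 6, which held no day 4 array, so slide and graft cannot be told apart in any comparison with the graft. The replicates 4 of lung and of intestine stood apart from their groups, with a median correlation of 0.89 and 0.842 with the other arrays of the group, and intestine replicate 5 had 0.84. In the graft that median was 0.951 to 0.971.

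The defining genes of CD8 T cells were well above background on every array (5 of 5 genes), and their summed linear level was 117 to 224 in the graft and 90.1 to 351 on day 4. Of these 5 genes, 2 were called higher on day 4 and 0 lower. Genes of other cells moved with the comparison as well. The summed level of B cell genes was 197 to 254 in the graft and 2.65 to 21.9 on day 4, that of neutrophil and monocyte genes was 282 to 437 against 1.02 to 89.1, and all of these genes that were tested (5 and 8) were lower on day 4. Pax5, a defining B cell factor, was not well above background on any array. Erythroid genes summed to 9.59 to 291 in the graft and 0.516 to 67.8 on day 4, and macrophage genes to 5.18 to 24.5 against 1.29 to 127. Hepatocyte genes summed to 1.69 to 1.97 against 0.963 to 2.65, with Alb and Ttr not well above background on any array. Lung epithelial genes reached 147 on a lung array and intestinal epithelial genes 23.2 on an intestine array. The genes of cell division summed to 2.98 to 9.77 in the graft and 14.5 to 103 on day 4 (3 of 3 tested higher). Of the 5 listed, Top2a and Cdk1 were too dim to be tested, well above background on 4 and 2 of 20 day 4 arrays. Cdk1 went the other way, with 17 of 20 day 4 arrays below every graft array. The part of any of these in the results on the enzymes was not tested, and in bulk RNA fewer cells of a type and less RNA per cell cannot be told apart.

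The promoters of 3 genes are printed because the genes behind them were higher on day 4 and because glycolytic promoters are textbook targets of factors that bind ACGTG, the core of the hypoxia response element, or CACGTG, the E-box of Myc and its partners. Each is the 250 bases before the annotated start in RefSeq (GRCm38.p6), read 5′ to 3′ along the gene's strand, with every ACGTG on either strand in capitals, which takes in every CACGTG.
Hk2, chr6:82774455-82774704, minus strand: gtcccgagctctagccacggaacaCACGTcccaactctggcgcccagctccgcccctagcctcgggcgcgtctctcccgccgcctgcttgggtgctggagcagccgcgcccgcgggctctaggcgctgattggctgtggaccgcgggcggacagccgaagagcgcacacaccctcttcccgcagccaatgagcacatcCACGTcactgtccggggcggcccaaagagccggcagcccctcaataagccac
Pgk1, chrX:106186850-106187099, plus strand: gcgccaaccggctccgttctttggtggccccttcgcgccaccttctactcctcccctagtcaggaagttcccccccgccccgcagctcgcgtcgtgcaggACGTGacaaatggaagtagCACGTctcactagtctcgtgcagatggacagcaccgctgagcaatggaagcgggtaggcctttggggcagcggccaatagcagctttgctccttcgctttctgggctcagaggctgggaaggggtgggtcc
Ldha, chr7:46845554-46845803, plus strand: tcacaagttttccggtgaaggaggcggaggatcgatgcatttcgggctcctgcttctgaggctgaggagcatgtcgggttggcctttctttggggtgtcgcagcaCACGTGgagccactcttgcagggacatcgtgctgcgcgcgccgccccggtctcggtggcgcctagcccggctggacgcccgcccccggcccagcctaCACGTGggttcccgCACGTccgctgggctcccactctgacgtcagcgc
The Hk2 and Pgk1 windows hold 2 matches to ACGTG each and none to CACGTG. The Ldha window holds 2 copies of CACGTG, and 5 matches to ACGTG when both strands are read, since each CACGTG counts on both strands. The second annotated Ldha start has none of either. ACGTG occurred in 16.6% of all 32851 RefSeq promoters of this length and in 14 of 47 promoters of the 32 enzymes (29.8%). It occurred in 11 of 27 promoters of the 17 enzymes that were higher on day 4 (40.7%) and in 3 of 20 promoters of the other 15. The 3 printed windows all hold it, so they do not stand for the 27. The windows of Pfkl and Pfkp, which were also higher, hold none. CACGTG occurred in 6.02% of all promoters, in 2 of these 27 and in 2 of these 20. Several promoters belong to 1 gene and can overlap, and a match describes the letters and not a site in use.

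On day 4 most enzymes of glycolysis and both dehydrogenases that open the NADPH branch were higher than in the graft, while the non-oxidative branch was not. All of lower glycolysis rose, as did Hk2, Pfkl, Pfkm, Pfkp, Aldoa, Tpi1, Ldha, G6pdx and Pgd, and 2 enzymes, Pdk1 and Taldo1, fell. Of the 32 genes 29 passed the filter on dim probes, of which 17 were higher, 2 lower and 10 not called in the 1 limma model over all 24 arrays, at a Benjamini-Hochberg adjusted p under 0.05 over all 9446 genes tested. Of all genes tested 53.4% were called (34.5% higher and 18.9% lower), so calls were common, and 65.5% of the tested enzymes were called. The filter let a gene in through any 1 group. Hk2 and Pfkm (well above background on 0 of 4 graft arrays), Pdk3 (1 of 4) and Rpia passed only through day 4 groups. Pdha1 passed only through the graft. The higher calls of Hk2, Pfkm and Pdk3 were thus favoured by the filter, and they lend the count no support. The median difference was 0.93 over the 29 enzymes and 0.23 over all genes tested. Without lung 4 and intestine 4, the count was 19 higher and 2 lower, and without intestine 3 the count of lower enzymes was 4. On simulated data with this design, 40% of genes changed by 1 on the log2 scale and 86% of those changed by 2 were recovered, so that an uncalled enzyme may still have differed. Those data changed only 100 of 9446 genes at each size, with independent noise, while 53.4% were called here. Their adjusted cutoff was thus not that of this comparison, and the shares recovered need not hold for it.

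The values of all 20 day 4 arrays lay above all 4 graft values for 11 enzymes (Hk2, Pfkm, Aldoa, Tpi1, Gapdh, Pgk1, Pgam1, Eno3, Ldha, G6pdx and Pgd) and below them for 1, Taldo1. Among all genes tested this was so for 11.0% and 6.19%. Of the 11 enzymes, Hk2 and Pfkm had passed the filter only through day 4 groups. Aldoc, Dlat and Rpe were too dim to be tested. Aldoc, the aldolase of brain, was well above background on 2 of 24 arrays, both from lung, with graft levels of -2.51, -2.63, -2.25 and -2.49. Dlat, a catalytic core subunit of the pyruvate dehydrogenase complex, was so on 8 arrays, none of them graft, and Rpe, which turns ribulose 5-phosphate into xylulose 5-phosphate, on 1.

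**Figure D1:**
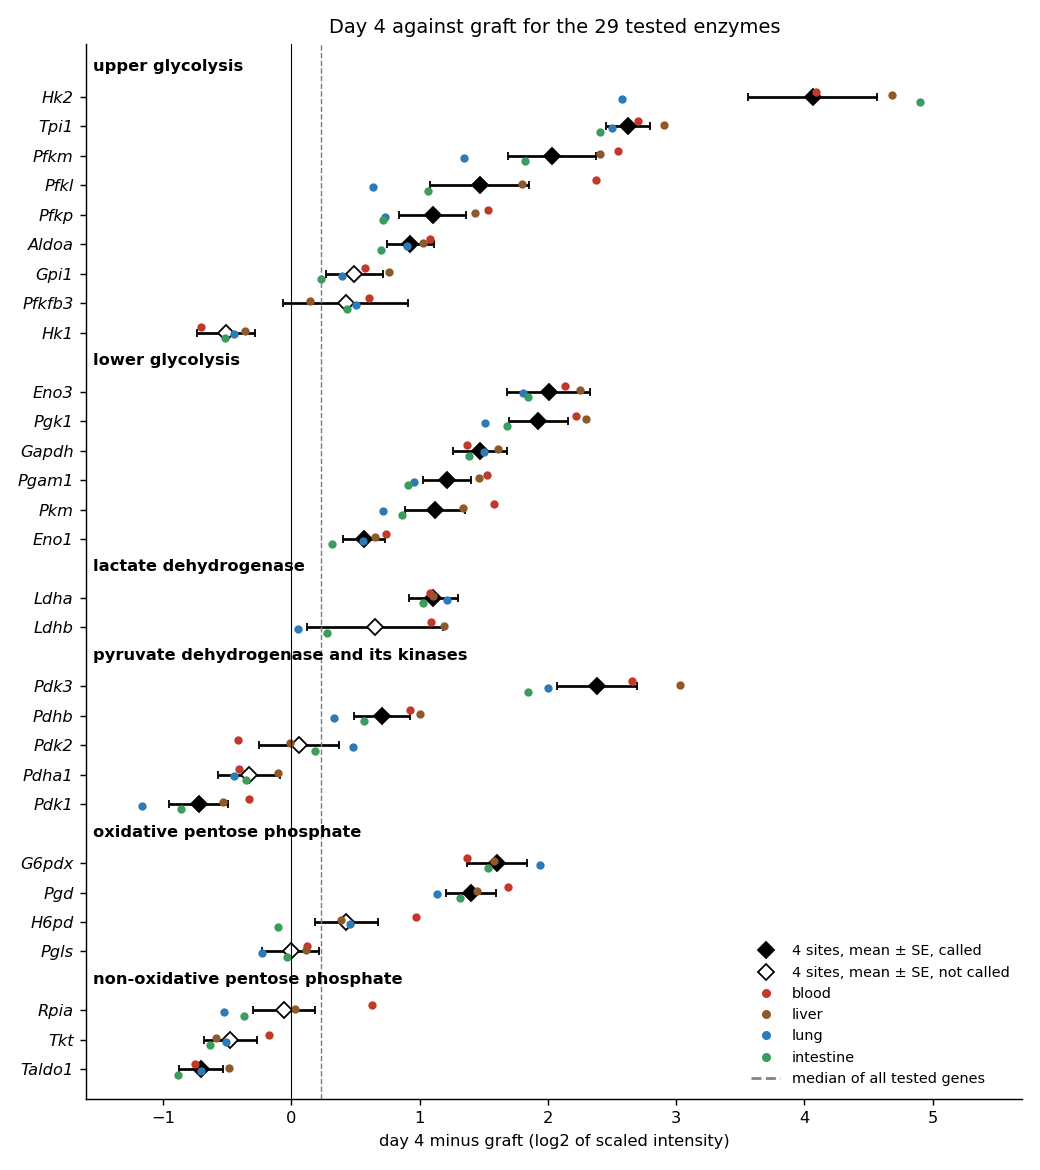
Difference between day 4 and graft for the 29 enzymes tested (log2 scale, horizontal axis), grouped by role. Diamonds with bars are the mean over the 4 sites with 1 standard error, filled where called, coloured points are single sites, and the dashed line is the median of all 9446 genes (0.23). The points of Hk2 (4.06) and Pfkm rest on graft arrays not well above background and are no measured size, with Hk2 at least 4.78-fold higher. Pdk1 (-0.72) and Taldo1 (-0.71) are the filled diamonds to the left of 0.

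In upper glycolysis 6 of 9 tested enzymes rose and none fell (median 1.10). Hk2 is the inducible hexokinase, which phosphorylates glucose on entry. Its graft levels were -2.16, -2.66, -2.67 and -2.56, none of them well above background, and on day 4 they ran from -2.08 through a median of 1.90 to 3.77, with 18 of 20 arrays above background. Since the graft gives only a bound, day 4 exceeded it at least 4.78-fold for Hk2 (limma adjusted p = 7.42e-07). Such a bound sets the day 4 mean against the lowest signal among probes well above background on each graft array, or against the probe's own signal where that is higher. It was at least 4.88-fold in blood, 8.56-fold in intestine, 7.34-fold in liver and 1.71-fold in lung, and 2 lung arrays (-2.08 and -1.18) were not above background.

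Hk1, the widely expressed hexokinase, had graft levels of 6.88, 7.15, 7.42 and 7.14 and day 4 levels from 6.17 through 6.52 to 7.58. Its difference of -0.51 (SE 0.23) was not called by limma (adjusted p = 0.0623), although 15 of 20 day 4 arrays lay below every graft array. It was called lower without liver 5, lung 3 or intestine 3 (adjusted p from 0.0238 to 0.0495). This probe maps to chromosome 5, away from the gene, and the other Hk1 probe that passed the filter, on chromosome 10, had a difference of 0.38. The sign of Hk1 was thus not the same between its probes. Gpi1 interconverts glucose and fructose 6-phosphate. It had graft levels of 5.77, 5.57, 5.42 and 5.69 against 4.99, 6.13 and 6.78 (lowest, median and highest) on day 4. Its difference of 0.49 (SE 0.22) had an adjusted p of 0.0693 in limma and became called without intestine 4 (0.0223).

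The phosphofructokinases, which commit sugar to glycolysis, rose in all 3 forms, with 1 of them dim. Pfkl, the liver type, lay at -0.15, -0.87, -0.75 and 0.09 in the graft and from -1.48 through 1.10 to 2.42 on day 4. The groups overlapped through lung 4, lung 5 and intestine 4, and the difference was 1.47 (SE 0.38, limma adjusted p = 0.0029). Pfkp, the platelet type, lay at 0.31, 0.09, -0.06 and 0.20 in the graft and from 0.09 through 1.37 to 2.04 on day 4, a difference of 1.10 (SE 0.26, limma adjusted p = 0.00126). Pfkm, the muscle type, lay at -2.46, -2.76, -3.22 and -2.60 in the graft and from -2.38 through -0.57 to 0.67 on day 4. All its day 4 values were above all graft values (limma adjusted p = 3.58e-05), but no graft array and only 8 of 20 day 4 arrays were well above background, so no fold is given for day 4 as a whole. It was at least 1.41-fold higher in blood and 1.28-fold in liver. Pfkfb3 makes the activator fructose 2,6-bisphosphate. It had graft levels of 1.26, 1.82, 1.40 and 1.30 and a wide day 4 range from -0.43 through 1.95 to 4.43, with a difference of 0.42 (SE 0.49, limma adjusted p = 0.475).

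Aldoa, the aldolase that splits the hexose, lay at 5.88, 6.00, 5.45 and 6.03 in the graft and from 6.19 through 6.86 to 7.32 on day 4. The groups did not overlap, and the difference was 0.93 (SE 0.18, limma adjusted p = 0.000229). Tpi1, which interconverts the triose phosphates, lay at 2.77, 3.29, 2.63 and 3.03 in the graft and from 5.11 to 6.06 on day 4. Its difference of 2.63 (SE 0.17, limma adjusted p = 8.37e-11) was close in size at each site, at 2.90 in liver, 2.71 in blood, 2.50 in lung and 2.41 in intestine. A second Tpi1 probe did not show this difference, as given with the probes further on.

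All 6 enzymes of lower glycolysis rose (median 1.34). Gapdh, which oxidises the triose phosphate, lay at 5.78, 5.82, 5.48 and 5.84 in the graft and from 6.75 through 7.06 to 8.00 on day 4, a difference of 1.47 (SE 0.21, limma adjusted p = 5.21e-06). Pgk1, the first step that yields ATP, lay at 3.31, 3.49, 3.29 and 3.89 in the graft and from 4.27 through 5.53 to 6.04 on day 4 (1.93, SE 0.23, limma adjusted p = 4.43e-07). Pgam1, the phosphoglycerate mutase, lay at 3.02, 3.29, 2.90 and 3.20 in the graft and from 3.48 through 4.41 to 5.02 on day 4 (1.21, SE 0.19, limma adjusted p = 1.28e-05). In none of these enzymes did the groups overlap.

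The enolases both rose, by different amounts. Eno1, the common enolase, lay at 5.92, 5.99, 5.49 and 6.05 in the graft and from 5.97 to 6.85 on day 4, a difference of 0.57 (SE 0.16, limma adjusted p = 0.00526) with overlapping ranges. Eno3, the enolase of muscle, lay at 2.24, 1.75, 1.35 and 2.50 in the graft and from 3.05 through 3.96 to 5.01 on day 4 (2.01, SE 0.32, limma adjusted p = 2.07e-05), without overlap. Pkm, the pyruvate kinase outside liver and red cells, lay at 4.13, 4.07, 4.05 and 4.52 in the graft and from 4.17 through 5.43 to 6.08 on day 4 (1.12, SE 0.23, limma adjusted p = 0.00037). The files do not say which splice forms of Pkm the probe reads.

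Of the lactate dehydrogenase subunits Ldha rose and Ldhb was not called. Ldha, the subunit of the form that favours lactate production, lay at 6.20, 6.43, 6.41 and 6.41 in the graft and from 6.93 through 7.49 to 8.06 on day 4, a difference of 1.11 (SE 0.19, limma adjusted p = 5.04e-05). No day 4 value fell into the graft's range. Ldhb lay at -0.08, -0.04, -0.06 and 0.62 in the graft and from -2.46 through 0.86 to 2.04 on day 4 (0.65, SE 0.53, limma adjusted p = 0.307), so that its day 4 arrays lay on both sides of the graft.

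The kinases that switch off pyruvate dehydrogenase went different ways. Pdk3 lay at -2.55, -1.67, -0.95 and -2.31 in the graft, with 1 of 4 arrays well above background, and from -1.34 through 0.54 to 1.57 on day 4, where 19 of 20 arrays were above every graft array (2.38, SE 0.32, limma adjusted p = 1.65e-06). Pdk1 lay at 0.49, 0.19, 0.15 and 0.38 in the graft and from -1.56 through -0.35 to 0.19 on day 4, where 19 of 20 arrays were below every graft array (-0.72, SE 0.23, limma adjusted p = 0.0117). Pdk1 was dim on day 4, well above background on all 4 graft arrays but on 11 of 20 day 4 arrays, so this size is uncertain. Pdk2 lay at 5.20, 5.76, 6.50 and 5.25 in the graft and from 4.60 through 5.58 to 6.94 on day 4. Its difference was 0.06 (SE 0.31, limma adjusted p = 0.887), and the ranges overlapped throughout.

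Among the subunits of the complex itself, Pdhb, the beta subunit of its first enzyme, rose. It lay at 2.60, 2.64, 2.68 and 2.80 in the graft and from 2.20 through 3.56 to 3.87 on day 4, a difference of 0.71 (SE 0.22, limma adjusted p = 0.0101). Pdha1, the partner alpha subunit, lay at -0.22, -0.54, -0.42 and -0.06 in the graft and from -1.51 through -0.68 to 0.10 on day 4 (-0.33, SE 0.24, limma adjusted p = 0.252), with 7 of 20 day 4 arrays well above background. Whether the alpha and beta subunits differ in their change was not tested.

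Both NADPH-producing dehydrogenases of the cytosolic oxidative branch rose. G6pdx, which commits glucose 6-phosphate to the pathway, lay at 2.78, 2.59, 3.00 and 2.56 in the graft and from 3.79 through 4.21 to 5.27 on day 4 (1.60, SE 0.24, limma adjusted p = 6.33e-06). Pgd, the second dehydrogenase, lay at 1.42, 1.64, 1.17 and 1.90 in the graft and from 2.49 through 2.79 to 3.72 on day 4 (1.40, SE 0.19, limma adjusted p = 3.16e-06). For both, every day 4 array was above every graft array. Pgls, the lactonase between them, lay between 1.17 and 1.64 in the graft and from 0.89 through 1.23 to 2.17 on day 4 (-0.00, SE 0.22, limma adjusted p = 0.987). H6pd, the enzyme of the endoplasmic reticulum, lay at 0.71, 1.10, 1.48 and 1.15 in the graft and from 0.14 through 1.56 to 2.58 on day 4 (0.43, SE 0.24, limma adjusted p = 0.141).

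In the non-oxidative branch 1 of 3 tested enzymes fell and none rose. Taldo1, the transaldolase, lay at 5.90, 6.10, 6.28 and 6.23 in the graft and from 4.73 through 5.48 to 5.85 on day 4, below the graft on all 20 arrays (-0.71, SE 0.17, limma adjusted p = 0.00158). Tkt, the transketolase, lay at 5.07, 4.79, 4.88 and 5.23 in the graft and from 3.55 through 4.61 to 5.08 on day 4, with 14 of 20 arrays below the graft (-0.48, SE 0.21, limma adjusted p = 0.0546). It was called lower without liver 2, intestine 1 or intestine 3 (adjusted p from 0.0221 to 0.0439). Rpia, which makes ribose 5-phosphate, had a difference of -0.06 (SE 0.24, limma adjusted p = 0.849). Of neutrophil and monocyte genes, all 8 tested fell in this comparison as well, and whether they bear on Taldo1 and Tkt was not tested.

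**Figure D2:**
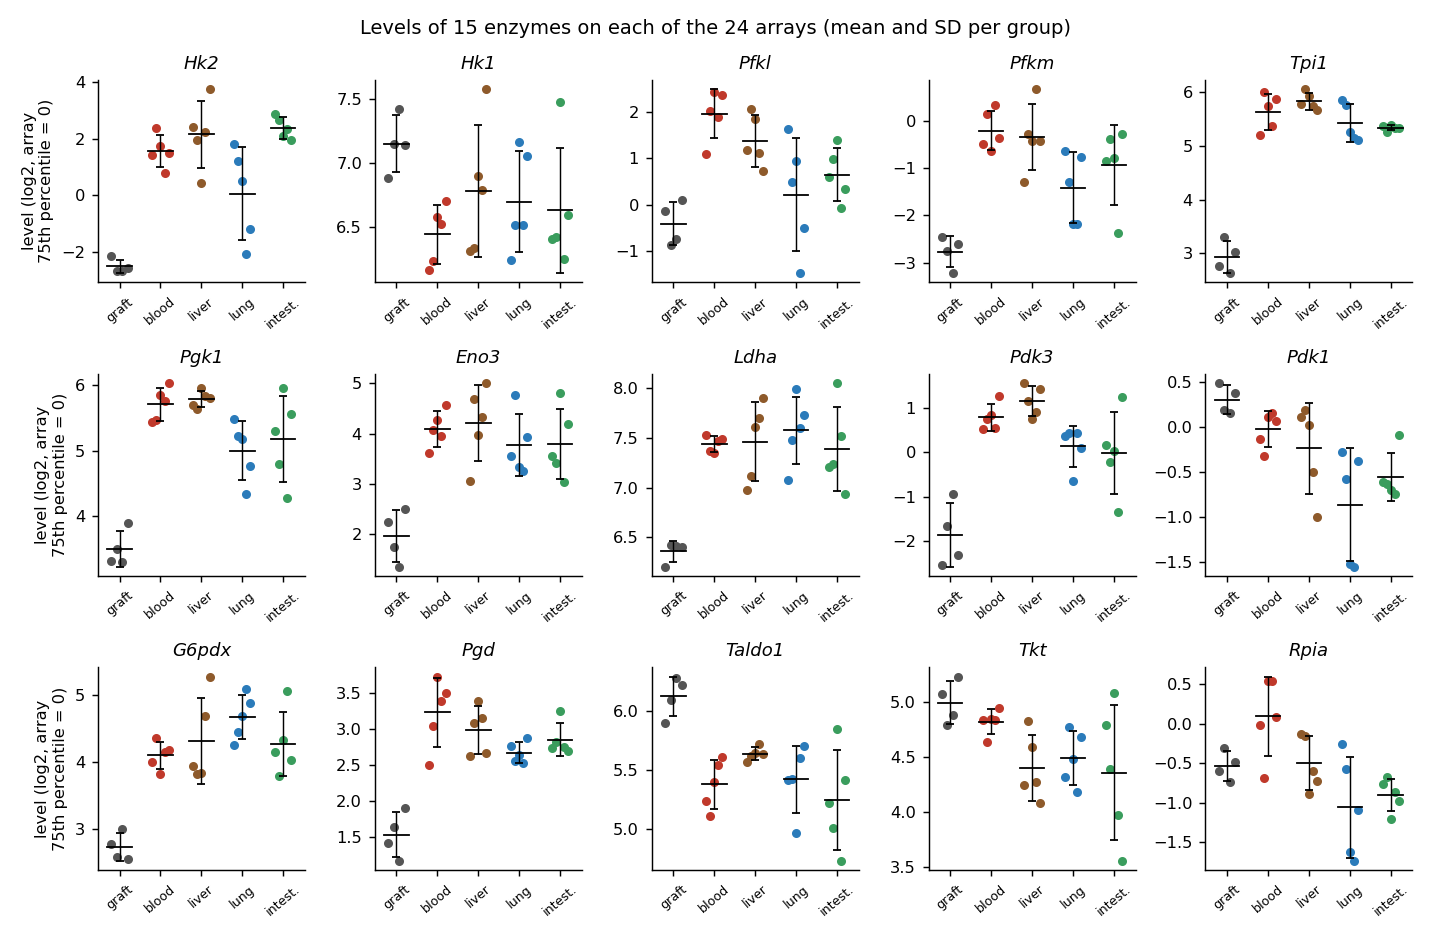
Level of 15 enzymes on each of the 24 arrays (log2, vertical axis, 0 at the array's 75th percentile), by group, with the mean and SD as bars and a scale of its own in each panel. All day 4 points lie above all graft points for Hk2, Pfkm, Tpi1, Pgk1, Eno3, Ldha, G6pdx and Pgd, and below them for Taldo1.

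For steps with more than 1 gene that passed the filter, the change of the difference between isoforms was tested for all 9 pairs of such genes. The test was an exact permutation test over samples (10626 regroupings of 4 graft and 20 day 4 arrays, two-sided). These tests were chosen after values had been seen, so they describe the pairs. Within an array, 3 differences were shifted upwards on every day 4 array relative to every graft array: Hk2 minus Hk1, Eno3 minus Eno1 and Pdk3 minus Pdk1. Each had an exact p of 9e-05, the smallest these permutations can give, and an adjusted p of 0.000282 over the 9 pairs. Hk2, Pfkm and Pdk3 had passed the filter only through day 4 groups. An upward shift of Hk2 minus Hk1, or of the pairs that start with Pfkm or Pdk3, was thus favoured, and the p-values of these pairs lend no support. Eno3 minus Eno1 shifted by 1.44, but the only Eno1 probe is annotated on chromosome 2, away from its gene, so this size is uncertain. No size is given for Hk2 minus Hk1, because no graft array of Hk2 was well above background and the Hk1 probe maps away from its gene. Pdk3 minus Pdk1 shifted by 3.11, with Pdk3 well above background on 1 of 4 graft arrays and Pdk1 on 11 of 20 day 4 arrays, so this size is uncertain.

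Pdk3 minus Pdk2, likewise favoured by the filter, shifted by 2.33 (exact permutation adjusted p = 0.00169), with 19 of 20 day 4 arrays above the graft. It was not called with the normexp background (0.77, exact permutation adjusted p = 0.0828). The remaining 5 pairs were not called. Pfkm minus Pfkp shifted by 0.93 (exact permutation adjusted p = 0.0622), and was called without liver 1, liver 4 or lung 3 (0.0305 to 0.0472). Pdk2 minus Pdk1 shifted by 0.78, Pfkm minus Pfkl by 0.57, Pfkl minus Pfkp by 0.37 and Ldha minus Ldhb by 0.46 (exact permutation adjusted p of 0.266, 0.266, 0.379 and 0.492).

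**Figure D3:**
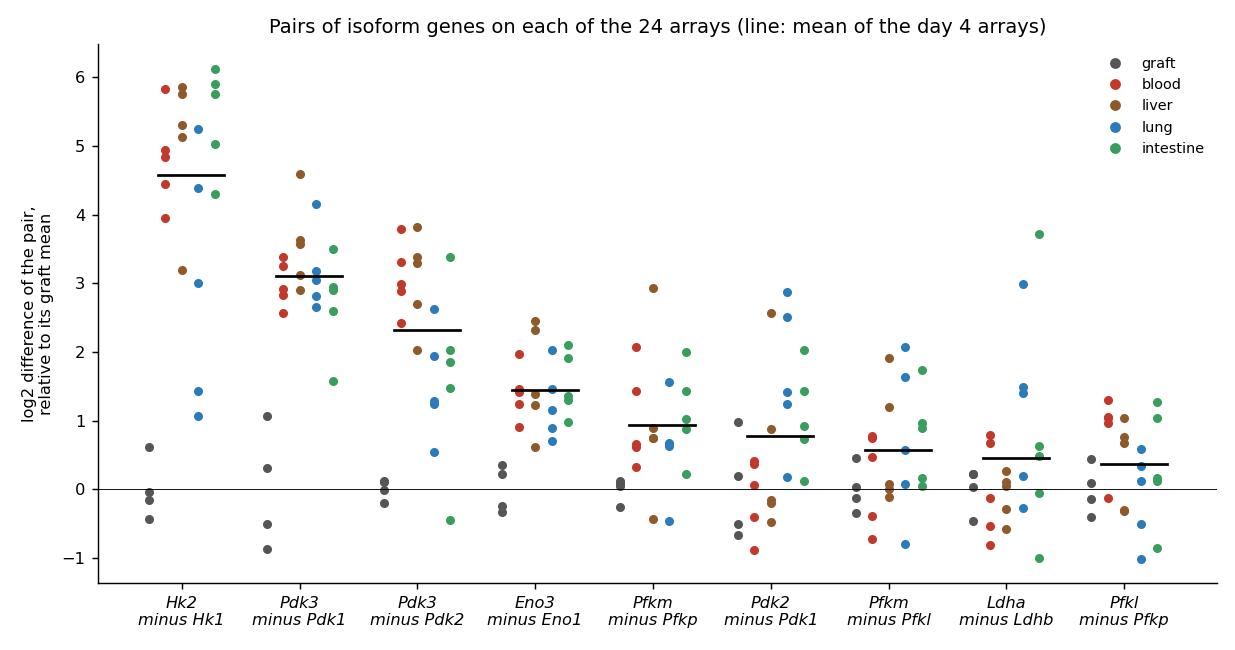
Difference between isoforms on each of the 24 arrays, relative to its mean over the graft arrays (log2, vertical axis), for the 9 pairs, with a line at the mean of the day 4 arrays and colours by group. For Hk2 minus Hk1, Eno3 minus Eno1 and Pdk3 minus Pdk1 all 20 day 4 points lie above all graft points. Graft values of Hk2 and Pfkm were not well above background, so heights of their pairs are no measured size. Hk2, Pfkm and Pdk3 had passed the filter only through day 4 groups. The Hk1 and Eno1 probes are annotated away from their genes.

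The 32 enzymes were covered by 51 probes, and 10 of the enzymes had several. The probes of Tpi1 and Ldha, whose probes spread most among the genes read on their own chromosome alone, are shown by the first 30 of their 60 bases, with their positions in mm9, because their place along the gene differs.
Tpi1, chr6:124760947-124761006, difference 2.63: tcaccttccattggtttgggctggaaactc
Tpi1, chr6:124761923-124761982, difference 0.14: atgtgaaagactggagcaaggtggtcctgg
Ldha, chr7:54110937-54110996, difference 1.11: tgcatatggatgatggaaccaaccacccaa
Ldha, chr7:54107294-54107353, difference 0.95: cttaacccagaactgggcactgacgcagac
Ldha, chr7:54103010-54103069, difference -0.55: gctgattgtgaatcttcttaaggaagagca
Both Tpi1 probes were well above background on all 24 arrays, and the one with the difference of 2.63 lies 976 bases further towards the 3′ end. The Ldha probe with the opposite sign lies 7927 bases from the most 3′ probe and was well above background on only 11 of 24 arrays. Whether position, transcript form or another RNA accounts for these gaps was not tested.

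Gapdh had 7 probes, which gave differences from 1.02 to 2.57, all upward. The 2 Pgk1 probes gave 1.93 and 1.88, the Pfkp probes 1.10 and 0.73 and the Gpi1 probes, which overlap almost fully, 0.49 to 0.70. For Pdhb the probes that passed the filter gave 0.71 and 0.48, and another, never well above background, gave -0.16. The chosen probes of Eno1, Gapdh, Hk1 and Pgk1 are annotated on chromosomes 2, X, 5 and 3, away from their genes, so near-identical copies may share their signal and these values are uncertain in that respect. For Gapdh and Pgk1, probes on the gene's own chromosome were also higher.

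**Figure D4:**
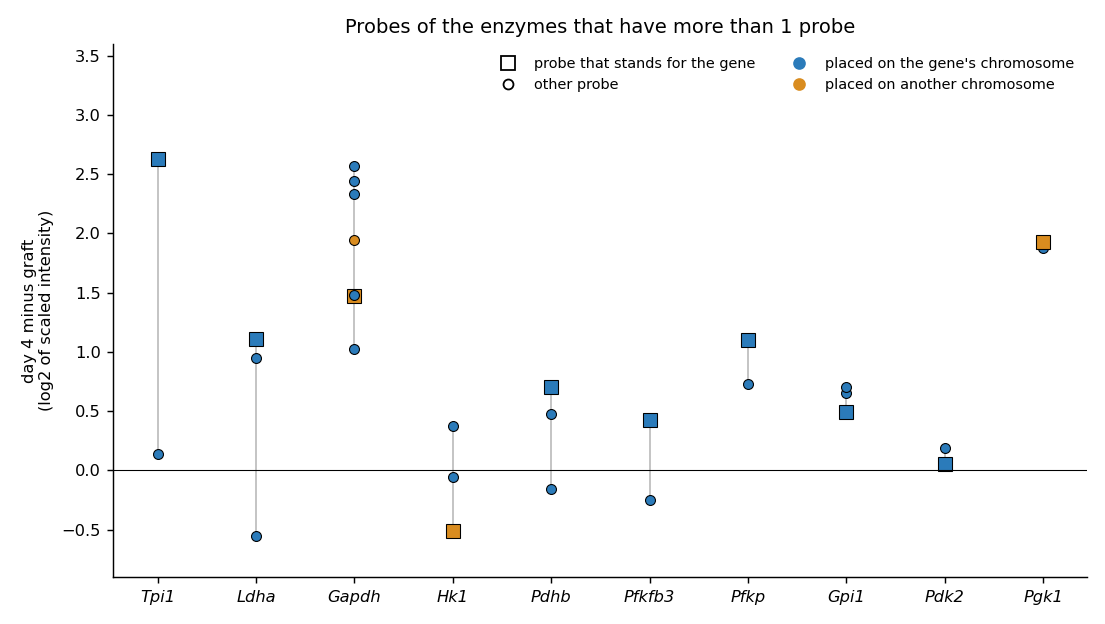
Difference between day 4 and graft (log2, vertical axis) for each probe of the 10 enzymes with several probes. Squares are the probe used for the gene, circles the others, and orange marks probes placed on another chromosome than the gene. The Gapdh probes lie between 1.02 and 2.57, the Tpi1 probes at 0.14 and 2.63, and the Ldha probes from -0.55 to 1.11.

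Taken site by site against the same graft arrays, 12 enzymes were higher at all 4 sites: Aldoa, Eno3, G6pdx, Gapdh, Hk2, Ldha, Pdk3, Pfkm, Pgam1, Pgd, Pgk1 and Tpi1. Of these, Hk2, Pdk3 and Pfkm had passed the filter only through day 4 groups. The share of all genes that were higher at all 4 sites was not worked out, so the count of 12 stands without its background. In blood 18 enzymes were higher and 2 lower, where 56.4% of all genes were called, 35.4% higher and 21.0% lower. In liver 18 were higher and 0 lower (2 more enzymes had an unadjusted limma p under 0.05 without being called), where 50.5% of all genes were called, 34.5% higher and 15.9% lower. In lung 13 were higher and 2 lower, where 37.4% of all genes were called, 25.9% higher and 11.5% lower. In intestine 13 were higher and 2 lower, where 34.9% of all genes were called, 22.2% higher and 12.7% lower. The enzymes' median difference was 1.08 for blood, 1.10 for liver, 0.63 for lung and 0.70 for intestine. The background moved with the counts, and since the 4 comparisons share their graft arrays, their counts are not independent.

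At 1 to 3 of the sites 10 enzymes were called. Pfkl was called in blood (2.38) and liver (1.80), with uncalled differences of 1.06 in intestine and 0.63 in lung (limma adjusted p = 0.0844 and 0.303). Pfkp was likewise called in blood (1.53) and liver (1.43), with 0.73 in lung and 0.71 in intestine. Pdk1, in the other direction, had -0.33 in blood and -0.54 in liver, not called, and -1.16 in lung and -0.86 in intestine (limma adjusted p = 0.00236 and 0.0211), where 2 of 5 and 1 of 5 arrays were well above background. Taldo1 fell in blood (-0.75), lung (-0.71) and intestine (-0.89), with -0.49 in liver (limma adjusted p = 0.0574). These are calls against the graft and show no difference between sites, which the next comparisons test.

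Between sites, few enzymes differed. The moderated F test over the 4 sites in limma called 4.0% of all genes and 1 enzyme, Rpia (adjusted p = 0.0482), with 12 enzymes at an unadjusted p under 0.05. No enzyme was called between liver and blood (2 at an unadjusted p under 0.05, and 0.0% of all genes called), lung and liver (10, and 0.455%), intestine and liver (5, and 0.0%) or intestine and lung (1, and 0.381%, of which 0.116% higher and 0.265% lower). These counts are from limma, and in lung against blood and intestine against blood it called 2 enzymes each, all lower than in blood, where 0.678% and 11.5% of all genes were called lower.

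Rpia lay at -0.60, -0.30, -0.74 and -0.49 in the graft and at -0.02, -0.68, 0.55, 0.54 and 0.09 in blood. Its levels were -0.13, -0.15, -0.89, -0.60 and -0.72 in liver, -0.26, -0.58, -1.62, -1.74 and -1.09 in lung, and -0.77, -0.67, -1.21, -0.87 and -0.98 in intestine. Blood was thus the highest site, and most arrays of lung and intestine were not well above background, with 2 of 5 and 1 of 5 that were. Rpia was lower than in blood by a difference of -1.15 in lung (limma adjusted p = 0.0387, 1.44% of all genes called) and of -0.99 in intestine (0.0264, 13.2% called). Slides 1 to 5 each held 1 array of every site, and within them both differences were negative on 4 of 5 slides. With the slide as a fixed block over the day 4 arrays, Rpia was no longer called among the 4 sites or between lung and blood (limma adjusted p = 0.0747), and between intestine and blood it was at an adjusted p of 0.0499. The lung call was lost without any 1 of lung 3, 4 or 5, blood 1, 3, 4 or 5, or graft 1 or 2 (adjusted p from 0.0504 to 0.14), and the intestine call without blood 3, 4 or 5 or intestine 2 or 4 (0.0535 to 0.0714).

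Pfkl lay at 1.10, 2.02, 2.42, 1.89 and 2.37 in blood and at 1.62, 0.49, 0.95, -1.48 and -0.49 in lung, with an overlap through lung 1. Its difference between lung and blood was -1.74 (limma adjusted p = 0.0498), negative on 4 of 5 slides. With the slide as a fixed block it was not called (limma adjusted p = 0.0518). The call was lost in 17 of 24 repeats that left out 1 array, with adjusted p-values from 0.0545 to 0.17. Those arrays were all 4 of the graft, blood 2 to 5, liver 1 to 4, lung 2, 4 and 5, and intestine 1 and 2. H6pd lay at 1.70, 1.81, 2.55, 2.58 and 1.77 in blood and at 0.14, 1.57, 0.97, 1.24 and 1.09 in intestine. The groups did not overlap, the difference was -1.08 (limma adjusted p = 0.0207), and it was negative on all 5 slides and called with the slide as a fixed block (limma adjusted p = 0.0343). It was lost without blood 3 or intestine 1 (0.0569 and 0.0555). H6pd was also not called with the scalings on detected probes, quantile normalisation or the deposited values (limma adjusted p from 0.0584 to 0.1105), nor with only the groups compared (0.0839). Pfkl in lung against blood was not called under the same scalings (0.0644 to 0.0937). The Rpia calls were lost under those on detected probes.

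Without lung 4 and intestine 4 together, no enzyme was called among the 4 sites or between lung and blood, and 2 were called between intestine and blood. Leaving out lung 1 raised the count between lung and blood to 10 enzymes. Leaving out intestine 3 raised that between intestine and blood to 9, and leaving out blood 3 lowered it to 0. The counts between sites therefore depend on single arrays. The shares of all genes called in these repeats are not given here, so such changes need not be particular to the enzymes.

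How arrays are scaled to each other sets the balance of higher and lower calls, and 6 scalings were compared. They moved the median difference of all genes from 0.23 to -0.31 with the median of the probes detected on all arrays, -0.18 with their 75th percentile, -0.05 with quantile normalisation, 0.29 with the normexp background and -0.05 in the deposited log2 values. The share of calls in the higher direction over all genes went from 64.5% to 36.7%, 41.1%, 50.4%, 71.3% and 50.5% in that order. For the enzymes it went from 89.5% to 70.0%, 73.7%, 80.0%, 94.7% and 80.0%. The enzymes' median lay 0.69 above that of all genes under the chosen scaling, 0.53 above it with normexp and 0.76 above it with quantile normalisation and in the deposited values, and 21 of 29 enzymes lay above it. Both scalings on detected probes shift every gene of an array alike, so they leave this gap as it is.

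Under all 6 scalings 14 enzymes were higher: Aldoa, Eno3, G6pdx, Gapdh, Hk2, Ldha, Pdk3, Pfkl, Pfkm, Pgam1, Pgd, Pgk1, Pkm and Tpi1. Of these, Hk2, Pdk3 and Pfkm had passed the filter only through day 4 groups. Taken scaling by scaling, 21.99% to 36.72% of all genes were called higher. The share of all genes called higher under all 6 was not worked out, so the count of 14 stands without its background. Pdk1 was lower under all 6, likewise without such a share. Taldo1 was lower under 5 and not called with the normexp background (-0.39, limma adjusted p = 0.108). Eno1 (0.02 and 0.16), Pfkp and Pdhb were not called under the scalings on detected probes, and Pdhb also not with quantile normalisation or in the deposited values. Tkt was lower under the 4 scalings other than the chosen one and normexp (-1.02, -0.89, -0.81 and -0.81), Hk1 and Pdha1 under the scalings on detected probes (-1.06 and -0.92, and -0.87 and -0.74), and Pgls under the median of detected probes (-0.55), quantile normalisation (-0.49) and the deposited values (-0.49). Gpi1 was higher with the normexp background (0.83).

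**Figure D5:**
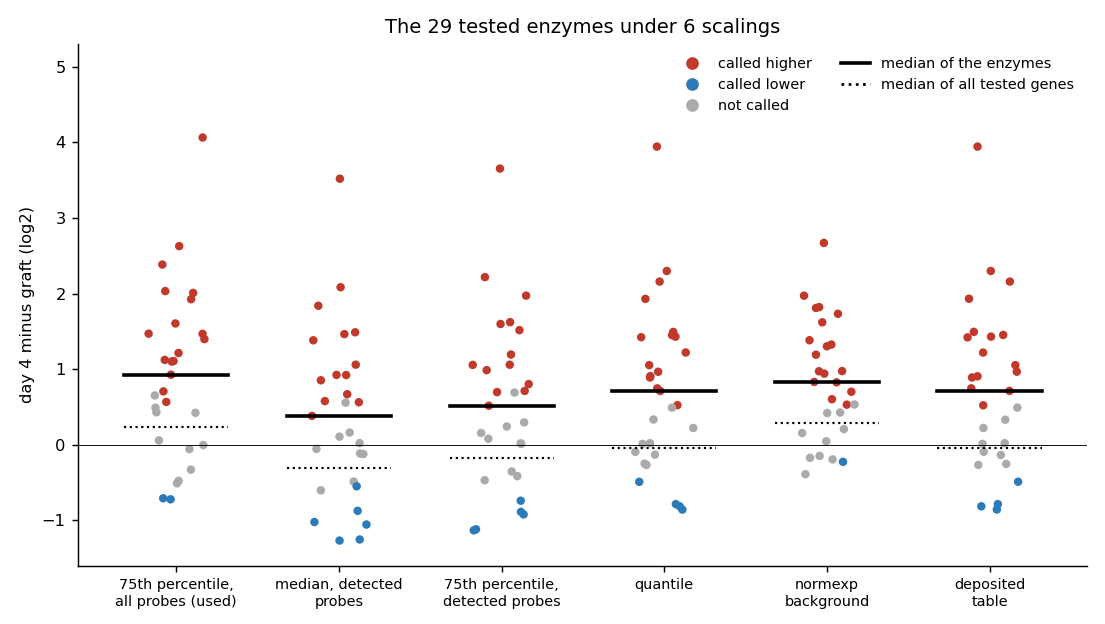
Difference between day 4 and graft (log2, vertical axis) for the 29 enzymes under 6 scalings of the arrays, each point an enzyme coloured by its call, with a solid line at their median and a dotted line at the median of all genes tested. The solid line lies above the dotted line under each scaling, by 0.53 to 0.76.

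Other genes of the pathways were taken from a list of 43. The counts of their calls stand beside 34.5% of all genes called higher and 18.9% called lower. Of 18 glucose and monocarboxylate carriers, mitochondrial pyruvate carriers and side steps, 11 were tested, 8 were higher and none lower (median 0.94). Slc2a1, the glucose transporter GLUT1, lay between -1.15 and 0.36 in the graft and from 0.30 through 2.12 to 3.54 on day 4, with 19 of 20 arrays above the graft (2.60, SE 0.35, limma adjusted p = 2.05e-06). Slc2a3, the transporter GLUT3, was not called (0.53, SE 0.47, limma adjusted p = 0.352). Rbks, the ribokinase that feeds ribose into the pentose phosphates, was at least 3.13-fold higher and Bpgm, which makes 2,3-bisphosphoglycerate, at least 1.40-fold, both dim on every graft array (limma adjusted p = 2.79e-05 and 0.00318). Slc2a1, Rbks and Bpgm had passed the filter only through day 4 groups.

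Of 19 other isoforms of the same steps 7 were tested, and none was higher and 4 were lower (median -0.69). Pfkfb4, the relative of Pfkfb3, lay between 1.79 and 2.39 in the graft and from -3.30 through -1.41 to 3.35 on day 4 (-2.86, SE 0.78, limma adjusted p = 0.004). Adpgk, the ADP-dependent glucokinase (-1.12), Pgam2, the muscle mutase (-1.03), and Ldhc, the lactate dehydrogenase of testis (-0.68), also fell (limma adjusted p = 0.0114, 0.000137 and 0.0116). These sizes are uncertain, since on day 4 Pfkfb4 was well above background on 9 of 20 arrays, Adpgk on 6, Pgam2 on 4 and Ldhc on 13. All 4 were well above background on all 4 graft arrays. The filter thus let them in through the graft whatever their level on day 4, which favoured lower calls. Myeloid and B cell genes fell in the same comparison, as given above, and their part was not tested.

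Of 6 regulators 3 were tested and 2 were higher. All 3 had passed the filter only through day 4 groups. Hif1a, the oxygen-sensitive factor that drives many glycolytic genes, was well above background on no graft array and on 9 of 20 day 4 arrays, with all 20 above the graft, and day 4 was higher by at least 1.23-fold, with a limma adjusted p of 0.000318. Vhl, which marks that factor for degradation, differed by 1.07 (limma adjusted p = 0.0185) and was not called without graft 4 (0.96, adjusted p = 0.0693), with the scalings on detected probes (0.52 and 0.66, adjusted p = 0.154 and 0.141) or with normexp (0.44, adjusted p = 0.0637). Myc, another driver of glycolytic genes, differed by 0.70 (SE 0.74, limma adjusted p = 0.434).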

How the data were processed

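Expression was measured on 24 one-colour Agilent arrays (44397 spots, mm9). The deposited scanner files give processed signal intensity per spot, made by the authors with Feature Extraction, version 9.5.1.1 per the file headers and 10.7 per the submitters' processing notes. The deposited series table holds log2 values, which matched quantile-normalised values centred on each probe's median (lowest correlation 0.9998) and served as an alternative. Amplification can alter levels differently between probes, so levels were compared only within a probe.

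Control and non-uniform spots were left out, and spots of a probe were averaged. Each array's 75th percentile of gene probes was subtracted on the log2 scale. A gene was tested if a probe was well above background on all or all but 1 arrays of a group, through its probe with the highest mean (9446 genes from 39429 probes). limma (3.58.1, R 4.3.3) fitted 1 model over 5 groups, with Benjamini-Hochberg adjustment over all genes. Probe names came from the files' accessions and symbols through RefSeq. The script was tested on simulated data. The 32 enzymes, the other lists and the isoform pairs were chosen with earlier results of these data known. The rule for names gave full values to the 10 called enzymes with the largest differences, those called against the majority or among sites, and isoforms, and the other enzymes were then given likewise. Other pathway genes are named if called and among the 3 with the largest differences of their list, or if Slc2a1, Slc2a3, Hif1a or Myc. Same-numbered day 4 arrays shared a slide (slides 1 to 5), and the slide was tried as a block. Correlations of deviations from group means ran from -0.37 to 0.56 over same-numbered day 4 pairs (median 0.15, other pairs -0.04). Graft arrays shared no slide with them. The level of 1 marker gene is not reported here.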

Additional observations from a re-analysis of the deposited data

Results flagged for a closer look

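In 12 of 145 groups of arrays examined, 1 array lay far from the rest of its group by Dixon's criterion, which chance alone meets in about 1 of 20 groups. Of these 8 were in intestine and 4 in the graft. Intestine 3 was far above its group for Hk1 (level 7.48, next 6.59), Gapdh (8.00, next 7.00), Eno1 (6.79, next 6.10), Pgd (3.24, next 2.82) and Pgls (2.17, next 1.23). Intestine 4 was far below its group for Pfkm (-2.38, next -0.85) and Pfkfb3 (-0.43, next 2.17), and intestine 5 was above it for Pdk1 (-0.10, next -0.62). In the graft, replicate 1 was low for Ldha (6.20, next 6.41), replicate 3 was low for Gapdh (5.48, next 5.78), and replicate 4 was high for Pkm (4.52, next 4.13) and Ldhb (0.62, next -0.04). The cause was not tested.

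Differences between sites were called by limma for Rpia over the 4 sites (adjusted p = 0.0482). Between lung and blood they were called for Pfkl (-1.74, adjusted p = 0.0498) and Rpia (-1.15, adjusted p = 0.0387). Between intestine and blood they were called for Rpia (-0.99, adjusted p = 0.0264) and H6pd (-1.08, adjusted p = 0.0207).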

How the results depend on the processing

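The count of 17 enzymes higher on day 4 stayed within 1.5 times under every alternative run (12 to 19), as did the counts at each site against the graft. With the filter on all arrays, only 19 of the 29 enzymes were still tested. Hk2, Pfkl, Pfkm, Pdk1, Pdk3 and Rpia were among those left out, so under this filter they could not be called. Of 1785 repeats for single genes and isoform pairs, 1648 kept direction and call, 71 lost a call, 31 gained one and 35 changed sign. The count of lower enzymes (2) was 6 with the median of detected probes, 5 with their 75th percentile, 4 with quantile normalisation, the deposited values or array weights, and 1 with normexp or a filter on all arrays, and 2 to 4 when 1 array was left out. The members' median difference (0.93) was 0.38 with the median of detected probes, 0.52 with their 75th percentile and 0.65 with the mean of a gene's probes, and 0.80 to 0.99 with 1 array left out.

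Among the 4 sites (1 enzyme), 0 were called with each other scaling, either other filter, only the day 4 arrays, the slide as a fixed block or without lung 4 and intestine 4, 3 with the slide as a random block and 12 with array weights (0 to 6 with 1 array left out). Between lung and blood (2) the count was 0 with the scalings on detected probes, either filter, the fixed slide, only the groups compared or without lung 4 and intestine 4, 1 with quantile normalisation, normexp or the deposited values and 6 with array weights (0 to 10 with 1 array left out). Between intestine and blood (2) it was 0 with the scalings on detected probes or only the groups compared, 1 with quantile normalisation, the deposited values or either filter, 5 with the random slide, 4 with the fixed slide and 12 with array weights (0 to 9 with 1 array left out). Array weights also called 5 enzymes between lung and liver, 10 between intestine and liver and 2 between intestine and lung, each 0 otherwise (0 to 1, 0 to 3 and 0 to 1 with 1 array left out). Rpia and Pfkl were not tested with the filter on all arrays, so the counts between sites under it could not include them. The shares of all genes called in these alternative runs are not given here, so changes in these counts need not be particular to the enzymes.

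Same-numbered day 4 arrays shared a slide, and the graft's numbers tied it to no other sample. With a replicate block, 17 enzymes were higher and 3 lower on day 4, 0 differed among the sites and 4 differed between intestine and blood. The lowest correlation between same-numbered samples was -0.37, and 7 of 20 day 4 arrays correlated best with their own number.

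Signs turned for these uncalled values. With the median of detected probes these were Gpi1 (-0.0548), H6pd (-0.12), Pfkfb3 (-0.12), Pdk2 (-0.49) and Slc2a3 (-0.0198). With their 75th percentile it was Pdk2 (-0.35). With quantile normalisation and the deposited values these were Pfkfb3 (-0.0944 and -0.0938), Pdk2 (-0.13 and -0.14) and Rpia (0.0212 and 0.0219). With normexp they were Pgls (0.15), Rpia (0.0457) and Pfkm minus Pfkl (-0.34). Without lung 4 and intestine 4, Pdk2 (-0.0256) and Pgls (0.0270) turned, as they did with the replicate block (-0.0255 and 0.0278). With 1 array left out, Pdk2 ran from -0.10 to 0.33, Pgls from -0.0736 to 0.0809 and Rpia from -0.13 to 0.0193. The causes were not tested. Dim probes limit, among others, Hk2, Pfkm, Pdk1, Pdk3, Pdha1, Rpia, Hif1a, Rbks, Bpgm, Pfkfb4, Adpgk and Pgam2.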
